A study of Homo sapiens with 6 samples.

Results

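Matrix metalloproteases (MMPs), the related ADAM and ADAMTS proteases and the tissue inhibitors of metalloproteases (TIMPs) were examined in 786-O cells in which YB1 was knocked down. The set was taken by gene symbol, as every row named MMP, ADAM, ADAMTS or TIMP followed by a number. It holds 66 of the 20030 genes in the table, made up of 23 MMP, 20 ADAM, 19 ADAMTS and 4 TIMP genes. 786-O is an established human cell line from a clear cell renal carcinoma. Knockdown cells (shYB1) carried lentiviral small hairpin RNA against YB1, and control cells (vector) carried a scrambled hairpin. Each group had 3 libraries from 1 cell line, with RNA collected 7 days after puromycin selection, and both groups had passed through that selection. The design text of the series speaks of 3 independent hairpins, whereas the library labels give a single shYB1 group. Which hairpin each shYB1 library carried is not stated. An effect of a hairpin other than the loss of YB1 therefore cannot be told apart from the knockdown. No label says that the libraries came from separate cultures, so the p-values measure only the spread between these libraries, which may be technical. In the shYB1 group that spread could also hold differences between hairpins.

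MMPs are zinc-dependent proteases that cut collagens, laminins and other matrix proteins, and also growth factors and receptors. They are made as inactive proenzymes, and TIMPs block them by binding the active site. MMP14 sits in the plasma membrane and activates the secreted MMP2, and TIMP2 has a dual role there, because a TIMP2 molecule bound to MMP14 captures the MMP2 proenzyme for activation while excess TIMP2 inhibits MMP14. ADAMs are membrane proteases that release the outer parts of receptors, ligands and adhesion molecules, and ADAMTS proteases are secreted and act on proteoglycans and procollagens. YB1 is a cold-shock domain protein that binds RNA and is named for the Y box, the CCAAT motif of promoters (ATTGG on the other strand).

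The deposited values are FPKM, fragments scaled to transcript length and to the mapped fragments of the library, so levels can be compared between genes. The mRNA of the targeted gene, YBX1, fell by 1.14 on the log2 scale (SE 0.031, adjusted p = 1.53e-08, limma), and the 3 shYB1 libraries lay below the 3 vector libraries. FPKM totals ranged from 282736 to 295887 per library, and the depth, known only in relative terms from the spacing of the lowest values, was 0.988 to 1.09 times that of shYB1 replicate 1. All 9 kidney markers were expressed, with PAX8 at 77.1 FPKM in vector and 77.5 FPKM in shYB1 cells. PAX2 alone was called, rising from 17.1 to 19.0 FPKM (adjusted p = 0.0392, limma). CA9 went from 7.92 to 6.97 FPKM and EPAS1 from 84.3 to 79.8 FPKM, without overlap (adjusted p = 0.0577 and 0.0798, limma). With the median-of-ratios scaling given below, these 2 were called lower (adjusted p = 0.018 and 0.00858, limma) and PAX2 was not called. Of 13 markers of leukocytes, fibroblasts and endothelial cells, 2 averaged 1 FPKM or more, namely CD68, a lysosomal protein, which went from 25.0 to 22.4 FPKM (adjusted p = 0.00969, limma), and LUM, at 2.06 and 2.31 FPKM. PTPRC, DCN and CDH5 were at no more than 0.017 FPKM in any library. CD14 reached 0.603 FPKM, COL1A1 0.393 FPKM and PECAM1 0.406 FPKM, of which PECAM1 was lower in every shYB1 than in every vector library (means 0.384 and 0.278 FPKM). The summed leukocyte markers, nearly all CD68, ranged from 25.0 to 26.0 FPKM in vector and from 22.5 to 23.1 FPKM in shYB1 cells, the fibroblast markers from 2.53 to 2.64 and from 2.74 to 2.97 FPKM, and the endothelial markers from 0.416 to 0.475 and from 0.322 to 0.415 FPKM. The test covered the 10439 genes that averaged 1 FPKM or more over the 6 libraries. Of these, 6.93% were lower and 18.7% were higher with shYB1 (adjusted p under 0.05, limma on log2(FPKM + 0.1), Benjamini-Hochberg adjustment). That balance depended on scaling, since 12% were lower and 11.4% higher with median-of-ratios scaling, which moved the median log2 fold change over the whole table from 0.055 to 0.00099.

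Of the 66 genes, 22 averaged 1 FPKM or more and were tested, and 44 lay under that limit. Among the 22, 7 were lower in shYB1 cells (MMP7, MMP14, MMP2, TIMP1, ADAMTS15, ADAMTS1 and ADAM12), beside 6.93% of all genes tested. Another 3 were higher (TIMP2, TIMP4 and ADAM15), beside 18.7% of all genes tested. The remaining 12 did not pass the test. The median log2 fold change of the 22 was −0.07, against 0.055 over all genes tested. With median-of-ratios scaling 10 were lower and 3 higher, beside 12% and 11.4% of all genes tested. ADAM10, ADAM17 and ADAM22 joined the lower genes in that fit. In 13 of the 22 genes the libraries of the groups did not overlap, beside 42.6% of all genes tested. As the members were chosen with earlier results of these data known, these shares are a description. MMP7 was the only member past the study's screening criteria, an unadjusted p under 0.05 with a fold change of at least 2, which 0.182% of the genes tested passed in the lower direction and 0.0383% in the higher one. The other 9 called members changed by less than 2-fold. Because these are bulk libraries, fewer cells expressing a gene and less RNA per cell cannot be told apart.

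**Figure D1:**
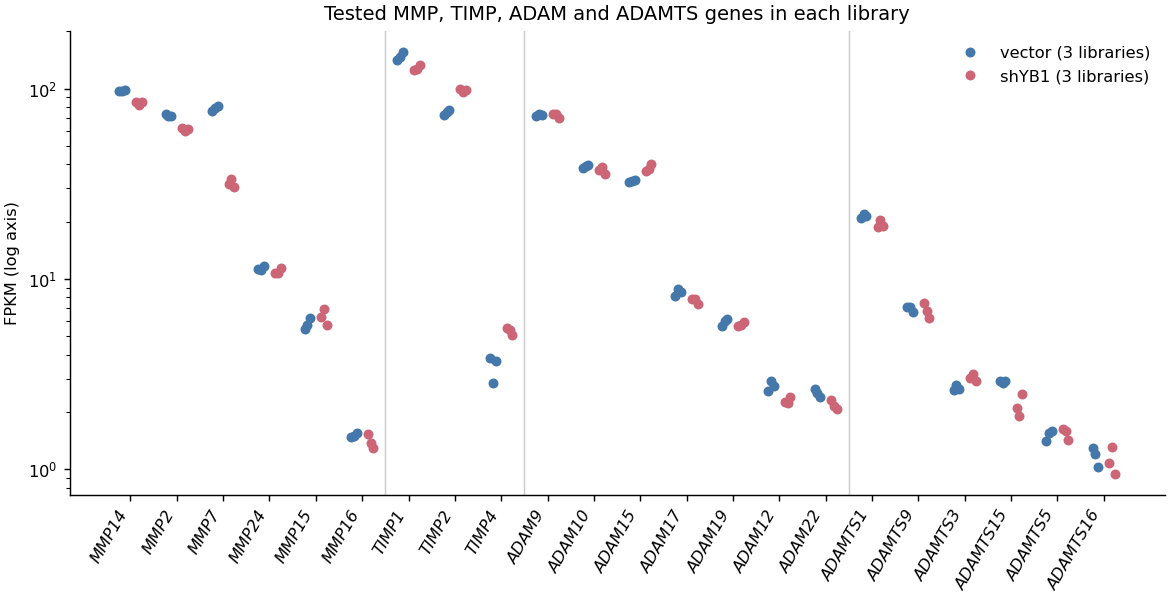
FPKM on a log axis of the 22 tested genes, 1 point a library, with vector libraries in blue and shYB1 libraries in red, ordered by mean level within each family. MMP7 shows the widest gap, from 79.0 to 31.7 FPKM on average, while ADAM9 at 72.8 and 72.5 FPKM overlaps fully.

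MMP7, or matrilysin, a small secreted protease that lacks the hemopexin domain of most MMPs and is typical of epithelial cells, had the largest change of the 22 tested members. Its FPKM were 76.3, 79.5 and 81.2 in vector cells, against 31.4, 33.5 and 30.3 after knockdown (replicates 1 to 3 of each group, the order used for all triplets of values). No shYB1 library came near the lowest vector library. The group means were 79.0 ± 2.48 (SD, n = 3) and 31.7 ± 1.62 (SD, n = 3), so that vector cells held 2.49 times the level of shYB1 cells. The log2 fold change was −1.31 (SE 0.043, 95% confidence interval −1.41 to −1.22, adjusted p = 5.4e-08, limma). MMP7 went from 29.2% ± 0.605 (SD, n = 3) of the summed MMP FPKM in vector cells to 16.0% ± 0.846 (SD, n = 3) in shYB1 cells.

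MMP7 lies at chr11:102520508-102530753 on the minus strand of GRCh38 (GENCODE release 29), at one end of a cluster of 9 MMP genes that spans 435 kb, all on that strand. None of the others reached a mean of 1 FPKM. MMP1, interstitial collagenase, read 0.785, 0.524 and 0.708 FPKM in vector cells and 0.788, 1.01 and 0.889 FPKM after knockdown. MMP13, collagenase of cartilage and bone, read 0.232, 0.340 and 0.484 FPKM against 0.497, 0.770 and 0.562 FPKM in the same order. Both collagenases thus had every shYB1 library above every vector library, the opposite side from MMP7, although in MMP1 the gap between the groups was under 0.01 FPKM. Fitted without the filter on low values, they did not pass (log2 fold change 0.38 and adjusted p = 0.172 for MMP1, 0.67 and 0.111 for MMP13, limma). MMP20, an enzyme of tooth enamel, averaged 0.0468 FPKM in vector and 0.110 FPKM in shYB1 cells. MMP3, MMP8 and MMP10 were each above 0 in only 1 library, a vector library, with means of no more than 0.008 FPKM. MMP12 and MMP27 were listed at 0 throughout.

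**Figure D2:**
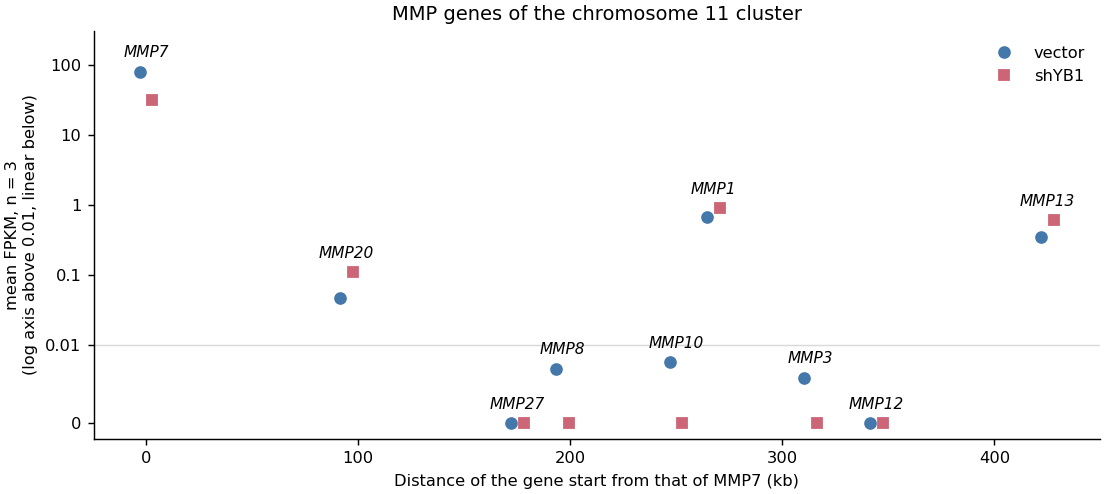
Mean FPKM of the 9 MMP genes of the chromosome 11 cluster (n = 3 libraries a group) against the distance of each gene's start from that of MMP7 in kb, with vector as circles and shYB1 as squares on an axis that is logarithmic above 0.01. MMP7 stands more than 30 FPKM above its neighbours in both groups, and MMP1 and MMP13, 267.4 and 425 kb away, lie below 1 FPKM on average.

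The promoters of 3 genes that changed are printed because each holds a CCAAT box, in 1 orientation or the other, in the 250 bases before the transcription start that RefSeq gives (GRCh38.p14). That start lies 6 bases inside the GENCODE gene span for MMP7, 28 bases inside it for MMP14 and 439 bases inside it for TIMP4, so the TIMP4 window falls wholly within the GENCODE gene. Each runs 5′ to 3′ in the direction of transcription, and capitals mark the motifs found. The MMP7 promoter (chr11:102530748-102530997, minus strand) carries CCAAT 162 bases before the start, the AP-1 site TGAGTCA 67 bases before it and the TATA box TATAAA 30 bases before it. The MMP14 promoter (chr14:22836335-22836584, plus strand) carries ATTGG 118 bases before the start. The TIMP4 promoter (chr3:12158913-12159162, minus strand) carries ATTGG 50 bases before the RefSeq start.
MMP7: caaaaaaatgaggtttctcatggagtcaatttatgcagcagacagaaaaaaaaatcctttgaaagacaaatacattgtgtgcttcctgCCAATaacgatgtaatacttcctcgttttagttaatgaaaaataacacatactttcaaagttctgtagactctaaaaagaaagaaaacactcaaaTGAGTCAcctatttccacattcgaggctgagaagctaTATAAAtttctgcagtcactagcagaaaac
MMP14: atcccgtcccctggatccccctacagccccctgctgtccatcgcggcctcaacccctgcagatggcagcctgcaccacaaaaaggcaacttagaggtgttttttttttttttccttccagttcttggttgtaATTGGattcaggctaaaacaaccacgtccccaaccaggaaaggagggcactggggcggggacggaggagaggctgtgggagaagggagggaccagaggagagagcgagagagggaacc
TIMP4: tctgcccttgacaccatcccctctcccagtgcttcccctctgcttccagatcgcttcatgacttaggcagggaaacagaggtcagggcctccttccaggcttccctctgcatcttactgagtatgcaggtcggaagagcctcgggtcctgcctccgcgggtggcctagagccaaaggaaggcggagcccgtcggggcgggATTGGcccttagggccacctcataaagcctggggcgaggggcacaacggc

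The motif is common, and genes that fell and genes that rose both carry it. CCAAT on either strand was found in 32.0% of 35116 RefSeq promoter windows of the same length, and in 15 of the 39 members that had an entry. AP-1 (TGANTCA on either strand, N being any base) was found in 6.57% of windows and in 4 of the 39 members, namely MMP7, MMP10, MMP20 and ADAMTS12. TATAAA on the gene's strand was found in 6.80% of windows and in 6 of the 39 members, of which MMP7 alone was tested. TIMP1 and ADAM15 held none of the 3 motifs in these windows, whose RefSeq starts lie 123 and 750 bases inside the GENCODE spans. The TIMP1 window thus falls partly, and the ADAM15 window wholly, within the GENCODE gene. ADAM12 held none of the 3 motifs either. Of the 10 called members 6 had an entry, 3 of them with CCAAT, while MMP2, TIMP2, ADAMTS1 and ADAMTS15 had none. A match is a description of the sequence, and binding was not measured in these data.

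MMP14 and MMP2 form an activation pair, and both fell by a small and similar amount. MMP14, at chr14:22836557-22849027 on the plus strand, was the most abundant MMP, at 97.3, 96.8 and 98.8 FPKM in vector cells and 84.8, 81.9 and 85.4 FPKM after knockdown. The groups were separated by more than 11 FPKM, with a spread within each of less than 4 FPKM. Means were 97.6 ± 1.03 (SD, n = 3) and 84.0 ± 1.90 (SD, n = 3), and the log2 fold change was −0.22 (SE 0.031, adjusted p = 0.000971, limma). MMP2, the gelatinase that cuts type IV collagen of basement membranes, at chr16:55389700-55506691 on the plus strand, read 73.2, 72.0 and 72.0 FPKM in vector cells and 62.0, 60.2 and 61.3 FPKM after knockdown. Its groups were likewise apart, with means of 72.4 ± 0.720 (SD, n = 3) and 61.2 ± 0.925 (SD, n = 3) and a log2 fold change of −0.24 (SE 0.031, adjusted p = 0.000437, limma). The ratio of MMP2 to MMP14 was 0.742 ± 0.0122 in vector and 0.728 ± 0.00893 in shYB1 cells (SD, n = 3; two-sided exact permutation test, p = 0.3). AC007336.3 on the same strand overlaps 8.80% of the exon length of the MMP2 transcript used, which has 1978 bases. The level of AC007336.3 was not examined. The other gelatinase, MMP9, was near 0, with no library above 0.068 FPKM.

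The other 3 tested MMPs, all bound to the membrane, did not pass the test. MMP15 averaged 5.80 ± 0.418 FPKM in vector and 6.34 ± 0.627 FPKM in shYB1 cells (SD, n = 3), and its log2 fold change had a 95% confidence interval of −0.05 to 0.30 (adjusted p = 0.284, limma). MMP24, at 11.4 ± 0.244 and 10.97 ± 0.354 FPKM, had an interval of −0.16 to 0.05, and MMP16, at 1.51 ± 0.0393 and 1.40 ± 0.126 FPKM, one of −0.31 to 0.11. Of these, MMP24 shares 18.1% of its exon length with the antisense gene MMP24OS. The strand setting of the counting is not stated, so reads of these 2 genes may not be separable. MMP24OS itself fell from 17.2 to 12.1 FPKM (log2 fold change −0.50, adjusted p = 0.000255, limma).

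The tested TIMPs did not move together. TIMP2 and TIMP4 rose and TIMP1 fell, while TIMP3 was at 0 in 4 of 6 libraries and at no more than 0.017 FPKM in the others. TIMP1, a secreted inhibitor that binds MMP14 poorly, was the most abundant gene of the whole set, at 141, 146 and 155 FPKM in vector cells and 125, 127 and 133 FPKM after knockdown. The groups did not overlap, but the vector libraries spread over more FPKM than the gap between the groups. Its mean went from 147 ± 7.26 to 128 ± 4.37 FPKM (SD, n = 3), a log2 fold change of −0.20 (SE 0.042, adjusted p = 0.00696, limma). TIMP2 was the second inhibitor by level, at 72.9, 75.4 and 77.5 FPKM in vector cells and 99.1, 95.8 and 98.1 FPKM after knockdown. Its lowest shYB1 library exceeded the highest vector library by more than 18 FPKM. The mean rose from 75.3 ± 2.31 to 97.7 ± 1.68 FPKM (SD, n = 3), by 29.8%, with a log2 fold change of 0.38 (SE 0.034, adjusted p = 5.71e-05, limma). TIMP4, an inhibitor known from heart and adipose tissue, was far less abundant, at 3.84, 2.83 and 3.70 FPKM in vector and 5.51, 5.43 and 5.08 FPKM after knockdown. The lowest vector library, replicate 2, set most of the spread of its group, and all shYB1 libraries were above 5 FPKM. TIMP4 rose from 3.46 ± 0.549 to 5.34 ± 0.233 FPKM (SD, n = 3), a log2 fold change of 0.62 (SE 0.11, adjusted p = 0.00262, limma), the largest rise of the 22 tested members.

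TIMP1 (chrX:47582313-47586789) and TIMP4 (chr3:12153051-12159351) lie within the synapsin genes SYN1 and SYN2, which run on the opposite strand. SYN1 was at no more than 0.027 FPKM and SYN2 at no more than 0.0375 FPKM in any library. TIMP2 lies at chr17:78852977-78925387 on the minus strand, and CEP295NL, which overlaps it, was at no more than 0.0495 FPKM in any library. AC022966.1, on the opposite strand, overlaps more of the exon length of the TIMP2 transcript used than CEP295NL does. The level of AC022966.1 was not examined. As the strand setting of the counting is not stated, its reads may not be separable from those of TIMP2.

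**Figure D3:**
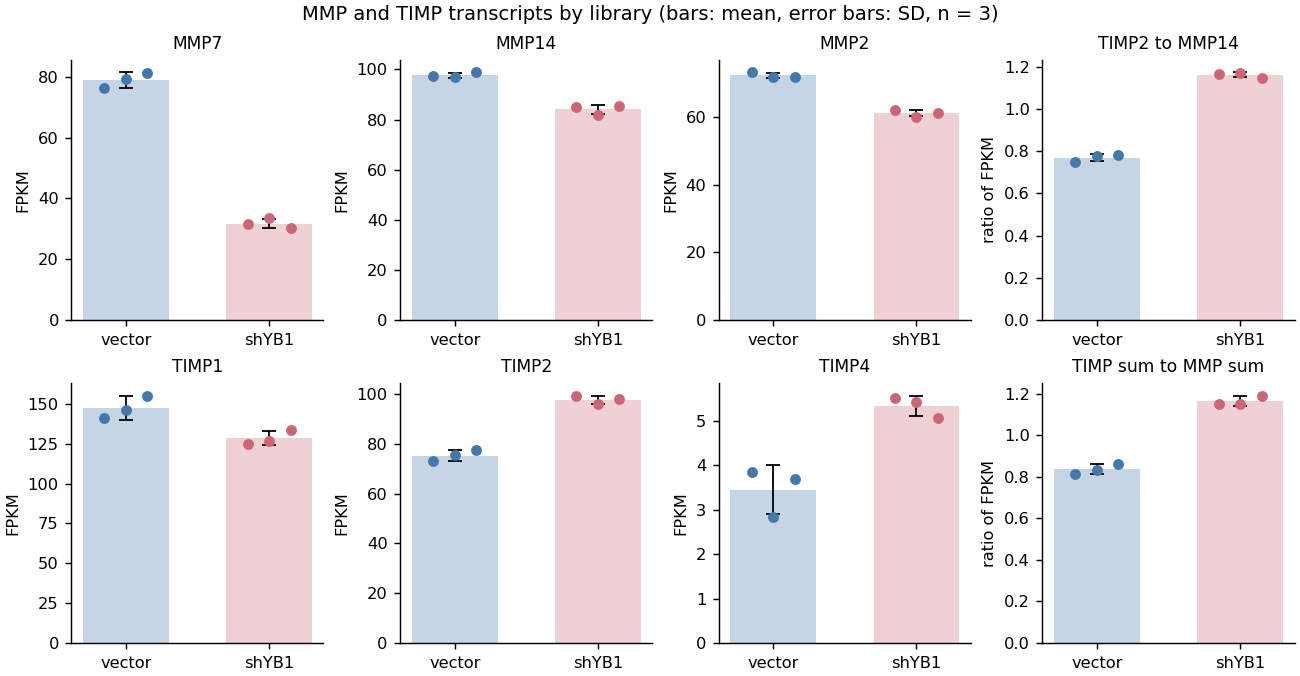
FPKM of MMP7, MMP14, MMP2, TIMP1, TIMP2 and TIMP4, and 2 ratios of FPKM, in each library (points), with the group mean (bar) and SD (error bar, n = 3), all on axes from 0. The 3 MMPs and TIMP1 lie lower in shYB1 than in vector cells, TIMP2 and TIMP4 higher, and the ratio of TIMP2 to MMP14 goes from below 0.8 to above 1.1.

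Summed over each family, MMP transcripts were lower in shYB1 than in vector cells, while the TIMP sums overlapped. The 23 MMPs together held 267.4, 269.0 and 274.1 FPKM in vector cells and 199.4, 198.2 and 198.8 FPKM after knockdown. This was a difference of −26.4% between the means, or −12.6% when MMP7 was left out, and the groups did not overlap either way (two-sided exact permutation test, p = 0.1 in both, the smallest that 3 libraries against 3 allow). The summed TIMPs overlapped between the groups, at 226 ± 9.53 FPKM in vector and 231 ± 4.51 FPKM in shYB1 cells (SD, n = 3, exact permutation p = 0.4). Without TIMP1, the abundant member that fell, the TIMP sum was 78.7 ± 2.27 FPKM in vector and 103 ± 1.69 FPKM in shYB1 cells, with no overlap (SD, n = 3, exact permutation p = 0.1). Within the full sum TIMP2 went from 33.3% to 42.2% and TIMP1 from 65.2% to 55.5%. The ratio of summed TIMP to summed MMP FPKM was 0.814, 0.834 and 0.862 in vector cells and 1.15, 1.15 and 1.19 after knockdown. The groups did not overlap (exact permutation p = 0.1), with vector libraries below 1 and shYB1 libraries above it. That crossing of 1 rested on MMP7, since without it the ratio was 1.14, 1.18 and 1.23 in vector cells and 1.37, 1.38 and 1.40 after knockdown. Without TIMP1 it was below 1 in every library, at 0.291 ± 0.00466 and 0.518 ± 0.00695 (SD, n = 3). The ratio was higher in all shYB1 libraries in either case.

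TIMP2 and MMP14, the pair whose balance sets MMP2 activation in the known model, changed places by FPKM. TIMP2 was at 0.749, 0.779 and 0.784 times the level of MMP14 in vector cells and at 1.17, 1.17 and 1.15 times that level after knockdown. The ratio of TIMP2 to MMP2 went from 1.04 ± 0.0412 to 1.60 ± 0.00405 (SD, n = 3). The ratio of TIMP1 to MMP14 did not differ beyond its spread, at 1.51 ± 0.0616 and 1.53 ± 0.0472 (SD, n = 3, exact permutation p = 0.7). These are ratios of mRNA within a library, which do not depend on how libraries are scaled, and protein or activity was not measured. Where a ratio stands against 1 does depend on the transcript lengths behind the FPKM, which are not given here.

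The summed ADAM transcripts changed little, while single ADAM genes moved in both directions. The most abundant, ADAM9, which sheds growth factor precursors, read 71.9, 74.0 and 72.6 FPKM in vector and 73.8, 73.5 and 70.2 FPKM after knockdown. Its libraries were intermingled, and the 95% confidence interval of its log2 fold change was −0.08 to 0.07 (adjusted p = 0.897, limma). ADAM10 and ADAM17 are the principal sheddases of Notch, cadherins, TNF and ligands of the EGF receptor. ADAM10 read 38.2, 39.5 and 39.6 FPKM against 37.4, 38.9 and 35.5 FPKM, with overlapping groups (log2 fold change −0.07, interval −0.16 to 0.02, adjusted p = 0.229, limma). ADAM17 read 8.16, 8.83 and 8.51 FPKM against 7.89, 7.88 and 7.35 FPKM. All its shYB1 libraries lay below the vector libraries, but the difference did not pass (log2 fold change −0.14, SE 0.054, adjusted p = 0.0841, limma). With median-of-ratios scaling both were called lower (adjusted p = 0.0385 for ADAM10 and 0.024 for ADAM17, limma). ADAM17 shares 30.1% of its exon length with IAH1 on the opposite strand, which read 12.6 FPKM in vector and 12.3 FPKM in shYB1 cells (adjusted p = 0.680, limma).

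ADAM15, a disintegrin with an RGD motif that binds integrins, was the only ADAM called higher. It read 32.5, 32.8 and 33.0 FPKM in vector and 36.9, 37.9 and 40.1 FPKM after knockdown. The vector libraries lay within 1 FPKM of each other, and every shYB1 library was more than 3 FPKM above them. Means were 32.8 ± 0.247 and 38.3 ± 1.60 FPKM (SD, n = 3), with a log2 fold change of 0.22 (SE 0.039, adjusted p = 0.00266, limma). ADAM15 lies at chr1:155050566-155062775 on the plus strand. Relative to ADAM9, it went from 0.450 ± 0.00578 to 0.529 ± 0.0370 (SD, n = 3).

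ADAM12, which has been linked to muscle, bone and tumor stroma, read 2.57, 2.91 and 2.75 FPKM against 2.26, 2.24 and 2.39 FPKM. It was called lower (log2 fold change −0.25, SE 0.078, adjusted p = 0.0414, limma), but close to the threshold, and 7 of 14 other settings lost the call (adjusted p from 0.016 to 0.123), among them leaving out any library other than vector replicate 1. ADAM22, a member without protease activity, went from 2.52 ± 0.113 to 2.17 ± 0.123 FPKM (SD, n = 3) and did not pass (log2 fold change −0.20, adjusted p = 0.0849, limma). ADAM19 stood at 5.95 ± 0.265 and 5.78 ± 0.145 FPKM (SD, n = 3), with an interval of −0.17 to 0.09 on the log2 scale. Summed over the 20 ADAMs, the groups did not differ beyond their spread, at 165 ± 2.46 and 167 ± 2.32 FPKM (SD, n = 3, exact permutation p = 0.5).

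Among the ADAMTS genes, ADAMTS1, which cuts the proteoglycans aggrecan and versican, held 55.0% of the family's FPKM in vector and 53.4% in shYB1 cells. It read 20.9, 21.8 and 21.4 FPKM in vector cells and 18.8, 20.4 and 19.0 FPKM after knockdown. The groups came within 1 FPKM of each other, and the call (log2 fold change −0.14, SE 0.044, adjusted p = 0.0397, limma) was lost in 7 of 15 other settings (adjusted p from 0.00851 to 0.129), among them leaving out any library other than shYB1 replicate 2. ADAMTS15, another protease of aggrecan and versican, read 2.90, 2.83 and 2.90 FPKM against 2.11, 1.90 and 2.49 FPKM. Its vector libraries were nearly equal, its shYB1 libraries spread more widely, and the groups did not overlap. It was lower by −0.40 on the log2 scale (SE 0.097, adjusted p = 0.0135, limma). ADAMTS3, a procollagen N-propeptidase that also processes VEGF-C, read 2.60, 2.78 and 2.64 FPKM against 3.03, 3.16 and 2.91 FPKM. Its groups did not overlap, on the opposite side from ADAMTS15, but the difference did not pass (log2 fold change 0.18, interval 0.02 to 0.34, adjusted p = 0.0948, limma). It was called higher with a variance prior without trend (adjusted p = 0.0438, limma). ADAMTS9, at 6.99 ± 0.268 and 6.84 ± 0.624 FPKM, ADAMTS5, at 1.52 and 1.55 FPKM, and ADAMTS16, at 1.18 and 1.11 FPKM, did not pass either (adjusted p of 0.753, 0.867 and 0.712, limma). Summed over the 19 ADAMTS genes, FPKM were 38.8 ± 0.716 in vector and 36.3 ± 1.29 in shYB1 cells (SD, n = 3, exact permutation p = 0.1). The sign of the ADAMTS9, ADAMTS5 and ADAMTS16 differences changed with the scaling or with single libraries left out.

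**Figure D4:**
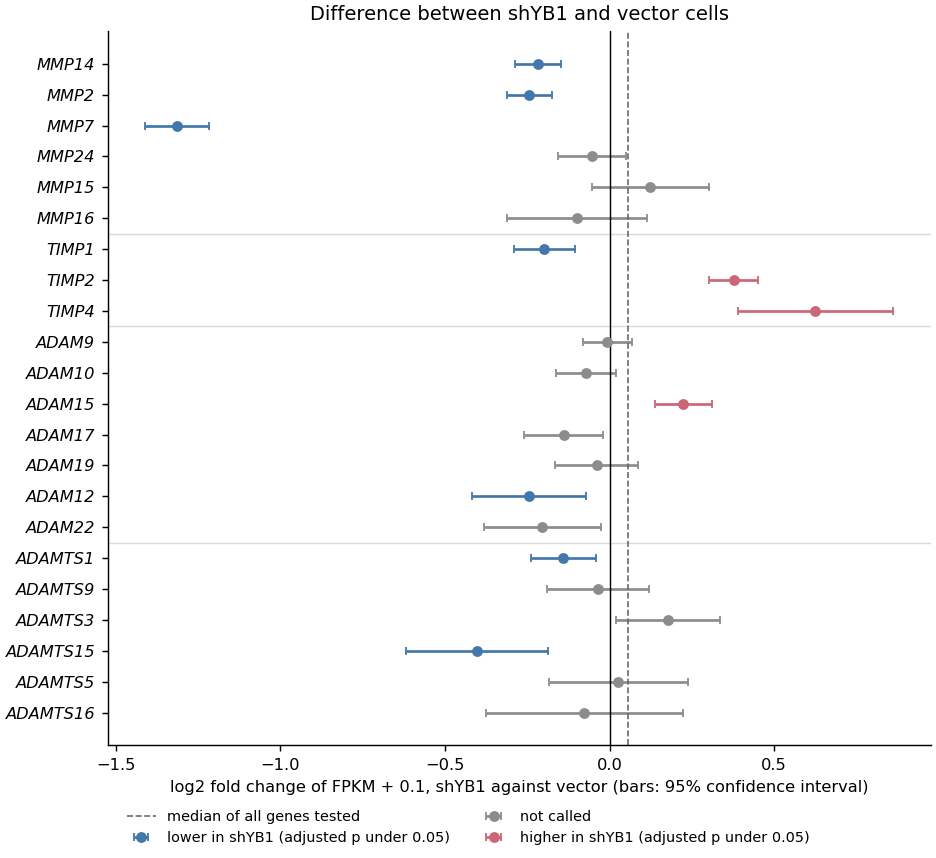
Log2 fold change of FPKM + 0.1 (shYB1 against vector) of the 22 tested genes, with 95% confidence intervals from limma, colored by call, with the median of all genes tested as a dashed line at 0.055. MMP7 at −1.31 stands alone to the left, and TIMP4 at 0.62 and TIMP2 at 0.38 are farthest to the right.

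Of the 44 genes under 1 FPKM, 10 were listed at 0 in every library, namely ADAM2, ADAM29, ADAM30, ADAM33, ADAMTS8, ADAMTS19, ADAMTS20, MMP12, MMP26 and MMP27. Another 34 were above 0 in at least 1 library, and the highest of them, ADAMTS12, averaged 0.813 FPKM over all 6. MMP28, or epilysin, a secreted MMP, stood at 0.412 and 0.416 FPKM in vector and shYB1 cells, and MMP17, anchored by a lipid, at 0.521 and 0.623 FPKM. MMP19 stood at 0.267 and 0.347 FPKM. ADAMTS10, ADAMTS12 and ADAMTS13, the last being the protease of von Willebrand factor, stood at 0.817, 0.790 and 0.521 FPKM in vector cells and at 0.729, 0.837 and 0.515 FPKM in shYB1 cells. None of these 6 genes passed when the filter was dropped. ADAM11, a neural member without protease activity, went from 0.349 ± 0.0559 to 0.247 ± 0.0496 FPKM (SD, n = 3; log2 fold change −0.37 without the filter, adjusted p = 0.192, limma). Without the filter, where 9.89% of 15988 genes were called higher and 3.85% lower, ADAM21 and ADAMTS2 were called higher (adjusted p = 0.0401 and 0.0482, limma). Both were below 0.1 FPKM in every library, ADAM21 at 0 in 2 of the vector libraries.

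Genes that act with these proteases or resemble them were examined in 5 lists. These hold activators and non-TIMP inhibitors, partners of ADAM10 and ADAM17, shed membrane proteins, matrix substrates, and ADAMTS-like and ADAM-like genes. All 5 lists were chosen with earlier results of these data known. Their shares beside those of all genes therefore describe the lists and test nothing. Of 109 listed genes, 69 were tested, with 15 (21.7%) lower and 18 (26.1%) higher in shYB1 cells, beside 6.93% and 18.7% of all genes tested. With median-of-ratios scaling 17 were lower and 12 higher, beside 12% and 11.4% of all genes tested. Without shYB1 replicate 2, 14 were lower and 11 higher, a fit for which the share over all genes is not given here. Among activators and inhibitors other than TIMPs, 3 of 13 tested genes (23.1%) were lower and 3 (23.1%) higher, with a median log2 fold change of 0.08. Only 1 was higher when vector replicate 1, shYB1 replicate 1 or shYB1 replicate 2 was left out. TFPI2, a Kunitz-type inhibitor of plasmin that is stored in the matrix, read 378 ± 5.05 FPKM in vector and 295 ± 1.38 FPKM in shYB1 cells (SD, n = 3), and fell by 0.36 on the log2 scale (adjusted p = 2.39e-05, limma). Among 9 tested partners of ADAM10 and ADAM17, such as tetraspanins and iRhoms, 0 were lower and 1, the integrin subunit ITGB1, was higher by limma (0 and 2 at an unadjusted p under 0.05), and 0 were called in either direction with median-of-ratios scaling.

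Of 26 tested membrane proteins known to be shed by ADAMs, 7 (26.9%) were lower and 7 (26.9%) higher, beside 6.93% and 18.7% of all genes tested, with a median log2 fold change of 0.07. The adhesion molecules VCAM1 and ICAM1, which bind leukocyte integrins, fell most, from 111 ± 3.01 to 65.7 ± 3.07 FPKM and from 75.6 ± 1.38 to 44.6 ± 0.973 FPKM (SD, n = 3; log2 fold change −0.76 in both, adjusted p = 1.63e-06 and 4.74e-07, limma). Of the precursors of ligands of the EGF receptor family, 4 were tested and 3 rose. EREG rose from 19.5 ± 0.907 to 32.8 ± 0.863 FPKM, HBEGF from 0.962 ± 0.122 to 1.65 ± 0.143 FPKM and TGFA from 49.1 ± 0.630 to 61.4 ± 1.36 FPKM (SD, n = 3). Their log2 fold changes were 0.75, 0.72 and 0.32 (adjusted p = 3.68e-06, 0.00181 and 0.00012, limma). The last, AREG, went from 2.40 to 2.95 FPKM and did not pass (adjusted p = 0.127, limma). The receptor tyrosine kinase AXL rose as well, by 0.53 on the log2 scale (adjusted p = 7.31e-06, limma), and the receptor subunit IL6R fell by 0.37 (adjusted p = 0.0269, limma).

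Of 18 tested matrix substrates, 4 (22.2%) were lower and 6 (33.3%) higher, beside 6.93% and 18.7% of all genes tested. Their median log2 fold change was 0.01. With median-of-ratios scaling 5 were lower and 3 higher, beside 12% and 11.4% of all genes tested. Without shYB1 replicate 2, 4 were lower and 3 higher. SPP1, which encodes osteopontin, a secreted integrin ligand cut by MMPs, was the most abundant gene named here, at 1246 ± 22.0 FPKM in vector and 884 ± 15.3 FPKM in shYB1 cells (SD, n = 3), and fell by 0.49 on the log2 scale (adjusted p = 3.92e-06, limma). TNC, or tenascin-C, rose from 7.83 ± 0.0880 to 10.6 ± 0.343 FPKM, and COL7A1, the collagen of anchoring fibrils, from 49.6 ± 0.915 to 65.5 ± 1.39 FPKM (SD, n = 3; log2 fold change 0.43 and 0.40, adjusted p = 0.000188 and 3.25e-05, limma). Of the ADAMTS-like and ADAM-like genes, which resemble these proteases, 4 were tested. PAPLN, which encodes papilin, a matrix protein related to the ADAMTS family, fell by 0.64 on the log2 scale, from 16.1 ± 0.607 to 10.3 ± 0.217 FPKM (SD, n = 3; adjusted p = 1.23e-05, limma). THSD4, an ADAMTS-like protein of fibrillin microfibrils, rose from 1.56 ± 0.0833 to 2.12 ± 0.0733 FPKM (SD, n = 3; log2 fold change 0.42, adjusted p = 0.00506, limma).

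**Figure D5:**
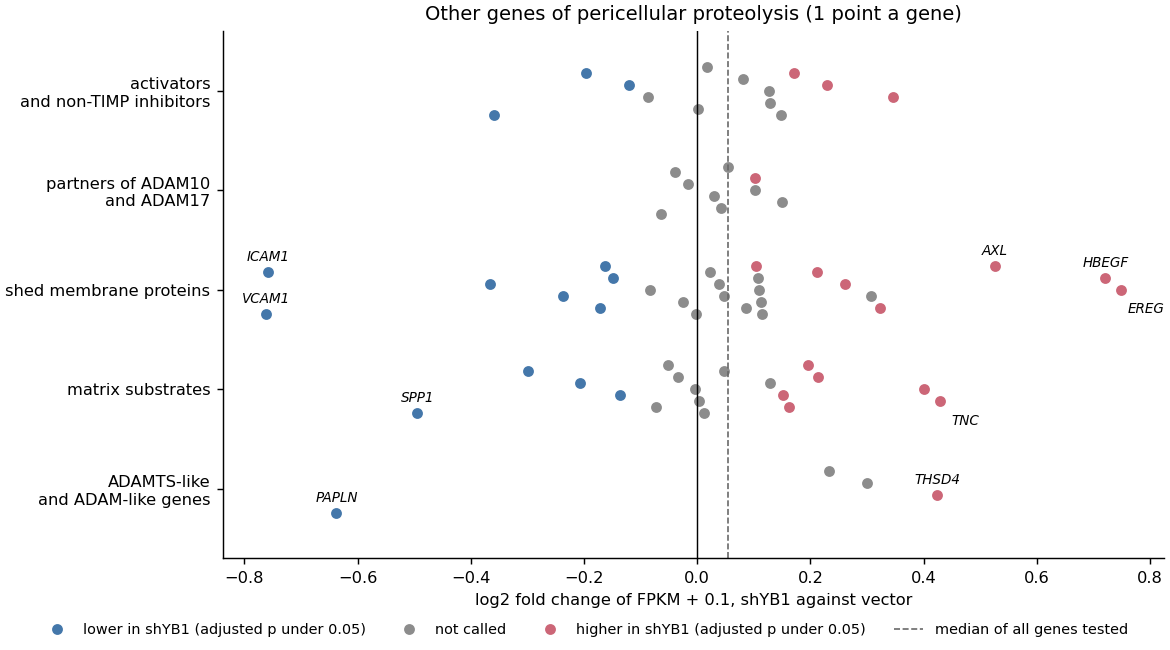
Log2 fold change of FPKM + 0.1 (shYB1 against vector) of the 69 tested genes of the 5 lists, 1 point a gene and vertical position within a list without meaning, colored by call, with THBS1 shown in both lists that hold it and the median of all genes tested as a dashed line. Shed membrane proteins spread widest, from VCAM1 at −0.76 to EREG at 0.75, and partners of ADAM10 and ADAM17 lie closest to 0.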

How the data were processed

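RNA was sequenced from 3 shYB1 and 3 vector libraries of 786-O cells. The authors deposited 1 table of FPKM for 20030 genes. The submitters' processing notes name Trimmomatic, HISAT2, Cufflinks, HTSeq, DESeq and GRCh38 without roles, and the counter and its strand setting are not given in the sources used here. FPKM hold no counts, so absolute depth is unknown and no counting interval was computed. Groups came from the labels, the columns headed con were taken as the vector group, and 0 columns were left out.

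Genes that averaged 1 FPKM or more were compared as log2(FPKM + 0.1), which understates changes of low genes, with limma 3.58.1 in R 4.3.3 (trend and robust prior, two-sided, Benjamini-Hochberg adjustment over 10439 genes). The step was tested on simulated data. Family sums and ratios were compared with exact permutation tests. Python 3.11.15 was used for other steps. Members were matched to GENCODE release 29, 51 by RefSeq accession and 15 by symbol. Shares of exon length refer to 1 transcript of each gene and may differ for its other transcripts. The members and the lists were chosen with earlier results of these data known. Named members were all 22 tested genes and those under the limit with a group mean of at least 0.3 FPKM or a call without the filter. Named list genes were those called with a fold change of at least 1.25, and ITGB1 and AREG were added after their values were seen. Not every gene that met this rule is reported here. Alternatives were pseudocounts of 1 and 0.01, no filter, a filter at 5 FPKM, 3 other scalings, a prior without trend, a replicate block, each library left out, a fold limit of 1.5 and sums without the most abundant gene. Sums and ratios without MMP7 or TIMP1 were added after seeing the data.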

Additional observations from a re-analysis of the deposited data

How the results depend on the processing

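Of the 10 member calls, 8 (MMP7, MMP14, MMP2, TIMP1, TIMP2, TIMP4, ADAM15 and ADAMTS15) held in every alternative that tested them, while ADAM12 and ADAMTS1 each lost theirs in 7. Leaving out 1 library at a time left 5 to 6 members lower and 3 higher, 1 and 0 by the screening criteria, and 11 to 19 list genes higher and 12 to 14 lower, the 11 being without shYB1 replicate 2. Without the filter 5 members were lower and 5 higher, beside 3.85% and 9.89% of 15988 genes. At a fold limit of 1.5 TIMP4 joined, so that 1 member was higher. Shares over all genes are not given here for the fits without a library, the fold limit of 1.5 or the replicate block. Counts from those settings therefore cannot be set beside the whole table. The replicate numbers did not pair the libraries (correlations of deviations between same-numbered libraries of -0.169, -0.0590 and -0.00824), and the replicate block left 6 lower and 3 higher, with ADAM12 at an adjusted p of 0.0583 and ADAMTS1 at 0.0283 (limma). With a variance prior without trend ADAMTS3 and ADAM22 were gained (adjusted p = 0.0438 in both, limma). With median-of-ratios scaling the log2 ratio of summed FPKM was -0.50 for MMPs, -0.043 for ADAMs, -0.15 for ADAMTSs and -0.021 for TIMPs. Without its most abundant gene it was -0.59 for MMPs, -0.042 for ADAMTSs, 0.39 for TIMPs and 0.98 for TIMPs over MMPs. In alternatives chosen after seeing the data, it was -0.19 for MMPs and 0.23 for TIMPs over MMPs without MMP7, and 0.83 for TIMPs over MMPs without TIMP1. Leaving out libraries gave -0.45 to -0.43 for MMPs, 0.00083 to 0.023 for ADAMs, -0.12 to -0.068 for ADAMTSs, 0.0071 to 0.067 for TIMPs and 0.46 to 0.50 for TIMPs over MMPs. The sign reversed in 4 genes near 0 that were never called. With libraries left out, ADAM9 ranged from -0.020 to 0.016, ADAMTS16 from -0.19 to 0.023, ADAMTS9 from -0.10 to 0.029 and ADAMTS5 from -0.025 to 0.079. ADAMTS5 was also at -0.025 with median-of-ratios scaling and -0.040 with quantile normalization. The causes were not tested. Low expression limits the 44 genes under 1 FPKM, and with 3 libraries a group no exact permutation test can go below 0.1.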
